A study of Rattus norvegicus with 10 samples.

Results

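Treml4 monocyte nuclei were 248 of 22037 nuclei from the area at risk (AAR) of injured rat hearts at 24 h: 183 of 11540 in the vehicle library and 65 of 10497 in the BT2 library. A nucleus was taken when it held at least 500 unique molecular identifiers (UMIs, each standing for 1 captured RNA molecule), at least 1 UMI of Ptprc or Csf1r, and at most 1 of Pdgfra, Flt1 and Csf3r together. The summed UMIs of Adgre4, Treml4 and P2ry10 had to reach 2. They also had to exceed both the sum of Gpnmb, Fam20c, Tmem26 and Anpep and the sum of Cd163, Stab1, F13a1 and Lyve1. These genes therefore chose the nuclei, and their values below describe the choice.

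Non-classical monocytes are blood monocytes that crawl along the vessel wall and survey the endothelium. They depend on the transcription factor Nr4a1 and on the fractalkine receptor Cx3cr1, and they use the integrin LFA-1 to adhere. After a heart attack, monocytes enter the injured muscle and many of them become macrophages. Treml4 is a receptor of the TREM family, Adgre4 an adhesion G protein-coupled receptor of myeloid cells, and P2ry10 a receptor for lysophosphatidylserine.

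All samples came from the AAR, the heart muscle supplied by the ligated left coronary artery. The rats had myocardial ischaemia and reperfusion injury and were treated with vehicle or with BT2, a compound for which the labels give this code name alone. Nuclei were profiled as 1 library of vehicle and 1 of BT2 at 100 mg/kg, both at 24 h. Tissue RNA was profiled at 4 h and 24 h, with 2 libraries per treatment and time and no stated BT2 dose. Whether the hours run from ligation, as titles have it, or from the injury, as the series description has it, is not settled. No uninjured heart was used here. Strain, sex, age and the number of rats pooled in a nuclear library are not stated in the labels. The labels do not say that same-group libraries are different rats, so p-values measure only the spread between these libraries, which may be technical.

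With 1 nuclear library per treatment, no difference between vehicle and BT2 nuclei could be tested. Intervals of nuclear values are exact 95% intervals (Clopper-Pearson for shares, Poisson for UMIs) and cover counting error alone, not differences between rats. The Treml4 nuclei were shallow, with a median of 1784 UMIs and 1097 genes in vehicle and of 1534 UMIs and 986 genes with BT2, against medians of 2449 and 2137 UMIs over all nuclei. Their summed depth was 366464 UMIs in vehicle and 115388 with BT2. The libraries shared 37 barcodes, of which 1 was among the Treml4 nuclei with BT2. The 8 tissue libraries held 10397310 to 24480984 counts.

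Treml4 nuclei made up a smaller share of the BT2 library than of the vehicle library. They were 1.59% of nuclei in vehicle (1.37 to 1.83%) and 0.619% with BT2 (0.478 to 0.789%), a ratio of 0.390 (0.290 to 0.521). Among nuclei that passed the same gate on Ptprc, Csf1r, Pdgfra, Flt1 and Csf3r, they were 4.23% of 4325 in vehicle (3.65 to 4.87%) and 2.25% of 2893 with BT2 (1.74 to 2.85%), a ratio of 0.531 (0.394 to 0.708). The lower share with BT2 was thus present on either denominator.

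For comparison, Gpnmb nuclei were those past the gate in which the 4 genes led by Gpnmb reached 2 UMIs and exceeded both other sums. Resident-type nuclei were defined likewise from the 4 genes led by Cd163, which mark resident macrophages. Gpnmb nuclei were 15.2% and 7.94% of all nuclei, a ratio of 0.521 (0.479 to 0.566), and resident-type nuclei were 4.98% and 4.36%, a ratio of 0.876 (0.773 to 0.992). Past the gate, the ratio was 0.709 (0.652 to 0.770) for Gpnmb nuclei and 1.19 (1.05 to 1.35) for resident-type nuclei, whose direction thus turned with the denominator. On either denominator the interval for Treml4 nuclei overlapped that of Gpnmb nuclei and lay below that of resident-type nuclei. BT2 nuclei were shallower, and a threshold in UMIs keeps fewer shallow nuclei. Among the 10189 vehicle and 9227 BT2 nuclei with at least 1000 UMIs, each thinned to 1000, the shares were 1.29% and 0.412%. Shallower nuclei were left out of these shares.

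**Figure D1:**
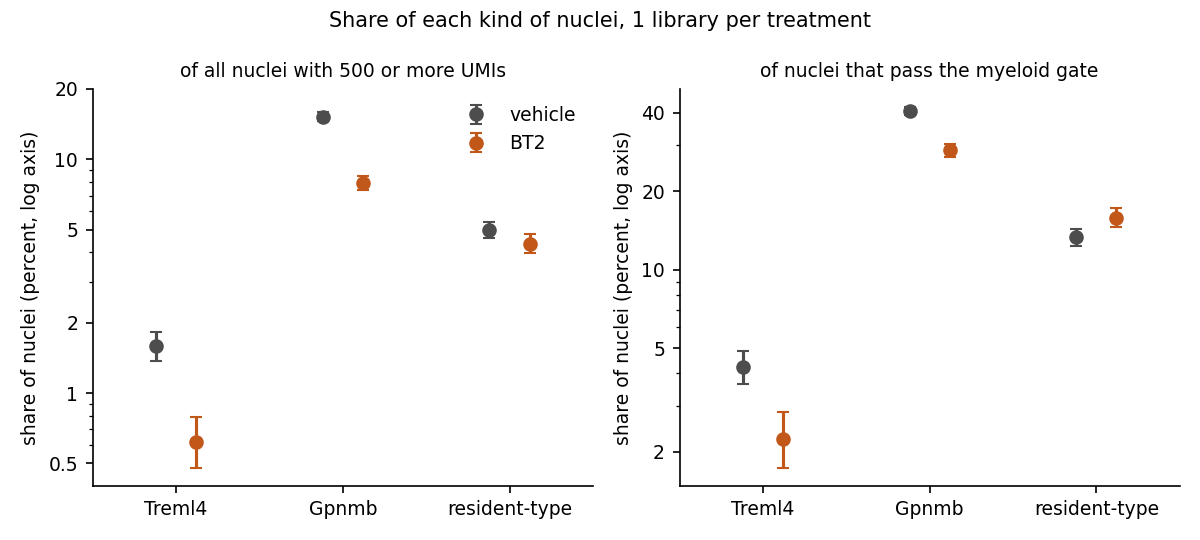
Share of Treml4, Gpnmb and resident-type nuclei in the vehicle and BT2 libraries, in percent on a log axis, over all nuclei (left) and over nuclei past the gate (right); points are shares and bars are exact 95% intervals. Treml4 nuclei were 1.59% and 0.619% of all nuclei and 4.23% and 2.25% of nuclei past the gate.

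Treml4 was the rule gene found in most of the nuclei. It was detected in 157 of 183 vehicle nuclei (85.8%) and 53 of 65 BT2 nuclei (81.5%), Adgre4 in 117 (63.9%) and 38 (58.5%), and P2ry10 in 91 (49.7%) and 30 (46.2%). All 3 genes were found together in 63 vehicle and 15 BT2 nuclei, and Treml4 was the sole rule gene in 44 and 17. The median sum of the 3 genes was 4 UMIs in either library. A sum of 10 or more was reached by 34 of the vehicle and 3 of the BT2 nuclei. Just inside the threshold, 41 vehicle and 18 BT2 nuclei had a sum of 2. Just outside it, 72 and 43 nuclei met the other conditions with a sum of 1, and 86 and 24 reached 2 without exceeding both other sums.

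In nuclei that should lack these genes, few UMIs appeared. Cardiomyocyte-marker nuclei (395 in vehicle, median 6434 UMIs, and 467 with BT2, median 3151 UMIs) held Treml4 in 1.27% and 1.28%, Adgre4 in 2.03% and 1.28%, and P2ry10 in 1.01% and 1.07%. Gpnmb nuclei held Treml4 in 8.88% in vehicle and 4.20% with BT2, and resident-type nuclei in 6.43% and 3.28%. Thinned to 1000 UMIs, Treml4 remained in 115 of 154 vehicle and 33 of 53 BT2 nuclei of the Treml4 kind.

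Promoters of rule genes are shown because these genes define the nuclei and both promoters at hand hold a myeloid motif. They run from 250 bases before to 50 after the annotated start and come from RefSeq (GRCr8), which was used for sequence alone. Of the rule genes, Adgre4 (chr9:10085105-10085404, plus strand) and P2ry10 (chrX:76265633-76265932, plus strand) had an entry and Treml4 had none. Capitals mark the motif GAGGAAGT, a box bound by the myeloid factor PU.1, which was searched on both strands after the sequences had been seen.

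Adgre4: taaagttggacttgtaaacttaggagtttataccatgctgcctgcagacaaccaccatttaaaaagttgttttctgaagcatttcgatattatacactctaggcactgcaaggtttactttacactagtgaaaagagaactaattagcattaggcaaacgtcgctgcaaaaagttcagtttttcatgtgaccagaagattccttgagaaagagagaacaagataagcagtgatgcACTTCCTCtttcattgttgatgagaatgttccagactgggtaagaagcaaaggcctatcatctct

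P2ry10: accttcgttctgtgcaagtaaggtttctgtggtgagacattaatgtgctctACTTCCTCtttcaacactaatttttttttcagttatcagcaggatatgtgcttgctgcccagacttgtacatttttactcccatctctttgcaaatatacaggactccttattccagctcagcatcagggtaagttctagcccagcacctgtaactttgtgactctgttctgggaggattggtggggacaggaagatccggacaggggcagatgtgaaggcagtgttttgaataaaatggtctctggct

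Both promoters held the box on the antisense strand, beginning 15 bases before the start of Adgre4 and 199 before that of P2ry10. It occurred in 810 of 33469 rat promoters of this length (2.42%). Among the 10 genes of the non-classical monocyte list with an entry it occurred in Fcgr3a alone, and in none of 11 promoters of the genes highest in Treml4 nuclei described below. The Nr4a1 response element AAAGGTCA, held by 1.43% of all promoters, was in none of these sets. A match describes letters and not binding.

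The genes of the rule stood far above the other kinds of nuclei, as the choice required. Treml4 was at 1588 CPM (the usual depth-scaled unit of counts, here of the UMIs summed over nuclei) in vehicle and 1196 with BT2, against 45.0 and 22.5 in Gpnmb nuclei. Adgre4 was at 830 and 737 CPM, against 12.1 and 9.77. P2ry10 was at 731 and 641 CPM, against 5.13 and 0.977.

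Genes outside the rule describe what else these nuclei held. Of 14 listed non-classical monocyte genes, 11 had the required 30 UMIs over Treml4 and Gpnmb nuclei together in vehicle, and 9 of these were at least 2-fold higher in Treml4 nuclei, against 7.88% of all genes. Over resident-type nuclei in vehicle, 9 of 10 were at least 2-fold higher (7.85% of all genes). With BT2 the counts were 5 of 8 over Gpnmb nuclei (12% of all genes) and 6 of 7 over resident-type nuclei (10.1%). The median log2 ratio of the list lay between 1.66 and 2.11 in the 4 comparisons. None of the list was at most 0.5 of either kind. Most listed genes with enough UMIs were thus higher, while the defining markers Ace and Klf2 had none. The classical monocyte list is described below.

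Among adhesion and surface genes of that list, Itgal, the alpha chain of LFA-1, was at 510 CPM in vehicle and 251 with BT2, against 69.6 and 38.6 in Gpnmb nuclei. Spn, the sialoglycoprotein CD43, was at 54.6 and 26.0 CPM against 6.98 and 6.84. Ceacam1, an adhesion molecule, was at 134 and 34.7 CPM against 11.5 and 10.8. Spn rested on 20 and 3 UMIs and Ceacam1 on 49 and 4. Itgax, the integrin CD11c, differed less, at 207 and 191 CPM against 156 and 132.

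Cx3cr1, the fractalkine receptor, was at 79.1 CPM in vehicle and 26.0 with BT2, against 32.2 and 6.84 in Gpnmb nuclei. It rested on 29 UMIs in 24 vehicle nuclei and 3 UMIs in 3 BT2 nuclei. Fcgr3a, the Fc receptor CD16, had 8 UMIs and 1 UMI. Lst1, a leukocyte-specific transcript, was at 322 and 199 CPM against 103 and 85.0, and Cd300a, an inhibitory receptor, at 344 and 277 against 116 and 60.1.

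Of the list's regulators, Pou2f2, the transcription factor Oct-2, was at 265 and 321 CPM against 29.6 and 28.8 in Gpnmb nuclei. Nr4a1 was at 120 and 78.0 CPM against 15.2 and 16.6. Cebpb, a C/EBP factor, and Dusp16, a MAP kinase phosphatase, were closer to Gpnmb nuclei, at 186 and 182 against 91.1 and 117 for Cebpb and 177 and 225 against 145 and 173 for Dusp16. Ace, the angiotensin-converting enzyme, and Klf2, a Krüppel-like factor, had 0 UMIs in the Treml4 nuclei of both libraries. A count of 0 allowed up to 3 UMIs per library.

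Over Gpnmb and resident-type nuclei in both libraries at once, 221 of 3511 genes (6.29%) were at least 2-fold higher in Treml4 nuclei and 155 of 11285 (1.37%) were at most 0.5 of either. The 15 genes with the largest ratios, the lowest of the 4 deciding, were Mal, Samhd1, Spns3, Plac8, Angpt1, Pou2f2, Tbc1d8, Ciita, Pon3, Cd22, Dgkg, Sorl1, Ly49si1, Itgal and Rap1gap2. They were ranked by these ratios, so their heights are a description.

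Rap1gap2, an activator of GTP hydrolysis by the small GTPase Rap1, was at 1888 CPM in vehicle and 1638 with BT2, against 226 and 250 in Gpnmb nuclei. It was detected in 79.8% and 78.5% of Treml4 nuclei, and in 70.1% and 60.4% after thinning to 1000 UMIs. Cardiomyocyte-marker nuclei carried it too, in 19.5% and 21.1% after thinning. Samhd1, an enzyme that degrades deoxynucleotides, was at 407 and 286 CPM against 30.4 and 17.1 in Gpnmb nuclei, a ratio of 13.4 (10.6 to 16.9) in vehicle and 16.7 (10.1 to 27.7) with BT2.

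Mal, a raft-associated membrane protein of myelin and lymphocytes, was at 126 and 60.7 CPM against 2.87 and 3.42. Tbc1d8, of the Rab GTPase-activating family, was at 666 and 676 CPM against 79.0 and 56.2. Plac8, a small cysteine-rich protein, was at 314 and 130 CPM against 20.5 and 14.2. Each of these was also higher than in resident-type nuclei.

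Angpt1, the ligand of the endothelial receptor Tek, was at 576 CPM in vehicle and 581 with BT2, against 56.7 and 65.0 in Gpnmb nuclei. Cardiomyocyte-marker nuclei held it at 341 and 367 CPM. The list of 12 cardiomyocyte markers summed to 3943 and 3579 CPM in Treml4 nuclei and to 8055 and 7221 in Gpnmb nuclei, and its part in the level of Angpt1 was not tested. Cd22, an inhibitory receptor that binds sialic acid and is known from B cells, was at 126 and 104 CPM. The B cell list was at 652 and 884 CPM, with 6 and 4 of its 10 genes detected, in 40.4% and 60% of the nuclei. It was higher in Gpnmb nuclei, at 826 and 1461 CPM in 41.9% and 59.1% of them, and in resident-type nuclei, at 807 and 1155 CPM. Bank1 had 73 and 11 UMIs, Pax5 had 6 and 2, and Ms4a1, a defining marker, had 0. The T and NK cell list was at 158 and 347 CPM, against 244 and 150 in Gpnmb nuclei and 254 and 219 in resident-type nuclei. Of its 18 genes 9 and 8 were detected in Treml4 nuclei, with Cd3d, Cd3e and Cd3g at 0. The part of B, T and NK cells in the level of Cd22 was not tested. Pax5, Ms4a1 and the Cd3 genes were chosen after their values were seen.

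Ciita, the master regulator of MHC class II genes, was at 188 and 269 CPM against 22.8 and 16.6 in Gpnmb nuclei. Of the antigen presentation list, 8 of 10 genes in vehicle and 6 of 6 with BT2 were at least 2-fold higher than in Gpnmb nuclei (7.88% and 12% of all genes), and 4 of 7 and 4 of 5 than in resident-type nuclei (7.85% and 10.1%). The list summed to 977 and 1014 CPM in Treml4 nuclei against 272 and 206 in Gpnmb nuclei. The members named next were chosen after their values were seen. Cd74, the invariant chain of MHC class II, was at 126 and 121 CPM against 24.2 and 11.7, and Cd80, a costimulatory ligand, at 265 and 295 against 86.0 and 88.5.

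Genes lower in Treml4 nuclei included several of the macrophage list, Mertk among them. Rbpj, the transcription factor of Notch signalling, was at 546 and 381 CPM, against 2147 and 1995 in Gpnmb nuclei and 6110 and 7480 in resident-type nuclei. Mertk, a receptor for the uptake of dying cells, was at 51.8 and 78.0 CPM against 593 and 390 in Gpnmb nuclei. Mtss1, a protein that links membranes to actin, was at 450 and 338 CPM against 2093 and 2116. These 3 were among the 10 lowest genes by the same rule, with Plau, Bcar3, Arsb, Spire1, Sema5b, Frmd4b and Nrcam.

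Plau, the urokinase that activates plasminogen, had 1 UMI in vehicle and 0 with BT2, against 40.8 and 44.0 CPM in Gpnmb nuclei. Of the 19 listed macrophage genes, 9 of 16 in vehicle and 10 of 13 with BT2 were at most 0.5 of Gpnmb nuclei, against 13.2% and 9.89% of all genes. Against resident-type nuclei the counts were 9 of 18 and 10 of 14, with 14.8% and 11% of all genes. The complement genes C1qa, C1qb and C1qc each had at most 2 UMIs in a library, whereas Adgre1, the F4/80 antigen, was higher than in either other kind, at 166 and 173 CPM against 17.0 and 12.7 in Gpnmb and 62.3 and 70.9 in resident-type nuclei. These 4 were named after their values were seen.

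**Figure D2:**
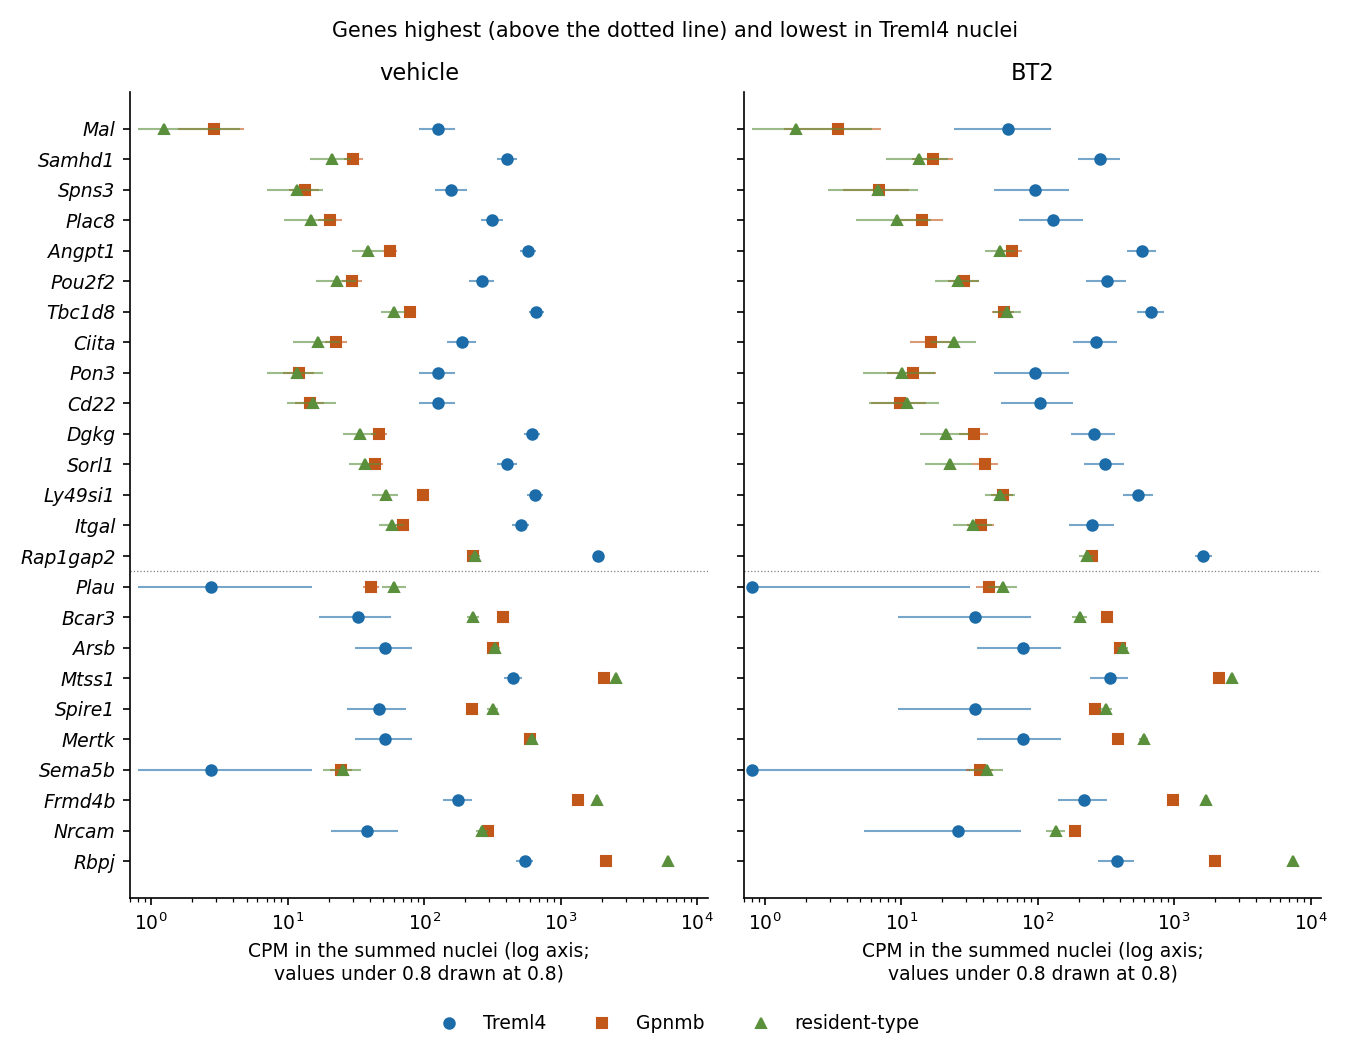
Level of the 15 highest and 10 lowest genes of the Treml4 nuclei in CPM on a log axis, in vehicle (left) and BT2 (right), with Gpnmb and resident-type nuclei; points are CPM of summed nuclei, lines exact 95% Poisson intervals, and values under 0.8 are drawn at 0.8. Samhd1 was at 407 CPM in vehicle Treml4 nuclei against 30.4 in Gpnmb nuclei, and Rbpj at 546 against 2147.

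Of the classical monocyte genes, 2 of 11 in vehicle and 2 of 8 with BT2 were at least 2-fold higher than in Gpnmb nuclei (7.88% and 12% of all genes), with median log2 ratios of 0.17 and 0.20. Against resident-type nuclei, 3 of 9 and 0 of 7 were (7.85% and 10.1%), with medians of 0.62 and 0.36. In the 4 comparisons, 1 gene was at most 0.5, over Gpnmb nuclei in vehicle (13.2% of all genes). Vcan, the proteoglycan versican and a marker of classical monocytes, was at 1888 CPM in vehicle and 2037 with BT2, against 1332 and 1514 in Gpnmb nuclei. Vcan was named after its values were seen. Summed, the classical list was at 4096 CPM in vehicle and 3337 with BT2 in Treml4 nuclei, against 3157 and 2929 in Gpnmb nuclei. In resident-type nuclei it was at 2435 and 2213 CPM. The non-classical list summed to 2420 and 1820 CPM in Treml4 nuclei, against 788 and 688 in Gpnmb nuclei. Plac8 and Fn1, described in other paragraphs, belong to the classical list.

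The nuclei varied with how many UMIs of the rule genes they held. Over both libraries, 59 nuclei had a sum of 2, 74 had 3 or 4, and 115 had 5 or more, with median depths of 1522, 1554 and 1900 UMIs. Along these strata Rap1gap2 was at 771, 1254 and 2533 CPM, and Angpt1 at 128, 238 and 923. Itgal was at 207, 318 and 609 CPM and Samhd1 at 138, 238 and 542. The strata are cut from the sum the rule used and differ in depth, so these levels are a description. In BT2 nuclei alone, Samhd1 did not follow the order, at 338, 178 and 343 CPM. Over both libraries the cardiomyocyte list was at 2578, 3017 and 4779 CPM. Neither library alone held that order, with 2874, 2156 and 5057 CPM in vehicle and 1861, 4920 and 3540 with BT2. A single vehicle nucleus held 653 UMIs of the list, and the vehicle strata held 206, 187 and 1052. The part of this list in the pattern was not tested.

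Ciita went the other way, at 445, 262 and 86.4 CPM, and Vcan was at 2084, 2358 and 1645. In vehicle alone Ciita was at 377, 369 and 48.1 CPM. With BT2 it was at 609, 25.5 and 257 CPM, and 1 BT2 nucleus held 14 of its 31 UMIs. Ciita thus had no single order with BT2.

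**Figure D3:**
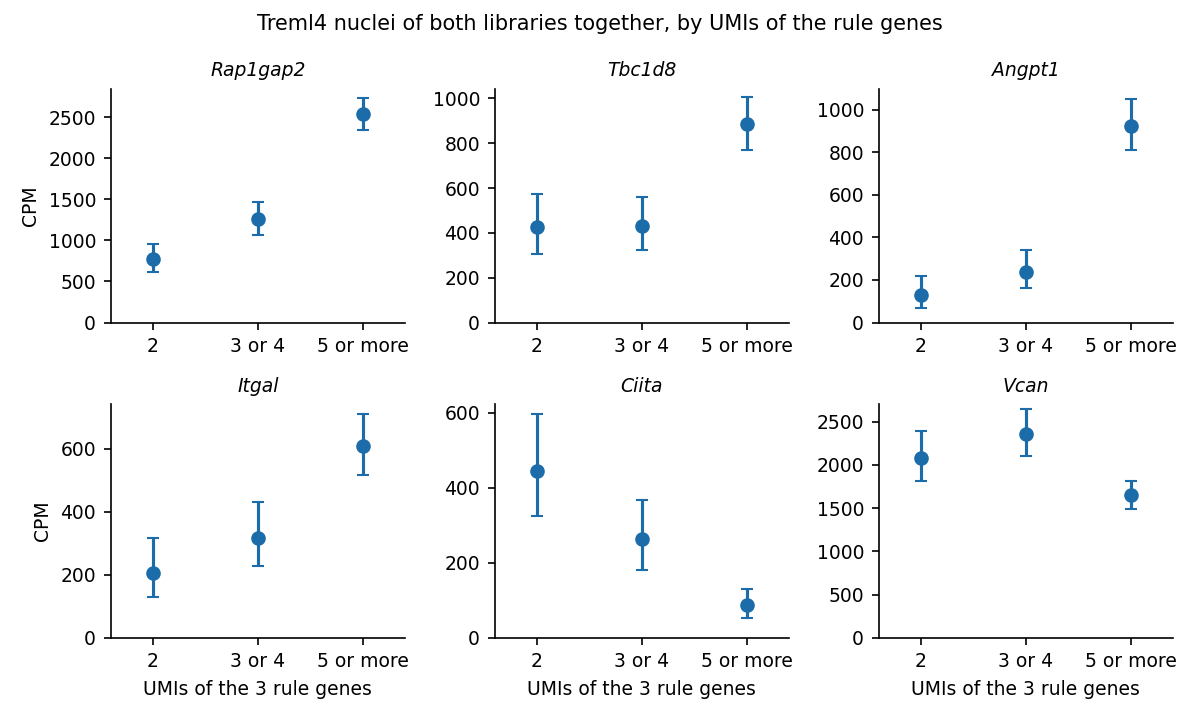
Level of 6 genes outside the rule in the Treml4 nuclei of both libraries together, in CPM, by the summed UMIs of Adgre4, Treml4 and P2ry10 (2, 3 or 4, 5 or more; 59, 74 and 115 nuclei); bars are exact 95% Poisson intervals. Rap1gap2 was at 771, 1254 and 2533 CPM and Ciita at 445, 262 and 86.4 CPM.

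Of the Treml4 nuclei, 38 had no UMI of Treml4 itself and 210 had one, a split by a rule gene that is described without a test. Flt3, the growth factor receptor of dendritic cells, was at 356 CPM without Treml4 and 38.6 with it, Zbtb46, a transcription factor of classical dendritic cells, at 252 and 94.1, and Cd74 at 311 and 94.1. The counts were small: Flt3 had 24 UMIs in 6 of the 38 nuclei, 9 of them in 1 nucleus. Zbtb46 had 17 UMIs in 7 of the 38 nuclei, and 10 of these UMIs were in 1 nucleus. Xcr1, which marks cross-presenting dendritic cells, had 0 UMIs in both, and Clec9a of the dendritic cell list had 1 in each. Genes of other lists were higher without Treml4 as well. Skap1 was at 193 and 45.9 CPM, Ebf1 at 933 and 427, and Themis of the T and NK cell list at 88.9 and 4.83. All 6 UMIs of Themis without Treml4 were in 1 nucleus. Bank1, Pax5 and Cd79a of the B cell list went the other way, at 59.3 and 193, 0 and 19.3, and 0 and 7.24 CPM. Rap1gap2 was at 1096 CPM without Treml4 and 1948 with it. The genes of this paragraph other than Rap1gap2 were chosen after their values were seen.

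Between the libraries, the summed Treml4 nuclei showed 196 of 3520 genes at least 2-fold higher with BT2 (5.57%) and 273 at most 0.5 of vehicle (7.76%). With TMM factors on the sums the split was 148 and 358, and the median log2 ratio of all genes moved from -0.07 to -0.20. Ratios below are of CPM, without TMM factors, so those above 1 shrink and those below 1 move further from 1 with them. When the nucleus with most UMIs of each gene was left out of both libraries, 152 of the 196 and 264 of the 273 stayed past the fold. Leaving out 1 nucleus takes a larger part of 65 BT2 nuclei than of 183 vehicle nuclei, so it tends to lower every ratio. The median log2 ratio of all genes was -0.20 this way, and 433 genes were at most 0.5. The same holds for each ratio given below without the richest nuclei.

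The rule genes had ratios of BT2 over vehicle of 0.753 for Treml4 (0.621 to 0.908), 0.888 for Adgre4 (0.690 to 1.13) and 0.877 for P2ry10 (0.669 to 1.14). These values were in part fixed by the threshold on their sum. Of the 15 highest genes, 0 were at least 2-fold higher with BT2 and 4 were at most 0.5 of vehicle, against 5.57% and 7.76% of all genes. These were Dgkg, a diacylglycerol kinase, at 0.422 (0.278 to 0.619), Mal at 0.483 (0.184 to 1.08), Plac8 at 0.414 (0.225 to 0.712) and Itgal at 0.493 (0.321 to 0.731). Rap1gap2 was at 0.867 (0.735 to 1.02), and at 0.802 (0.672 to 0.953) without the nuclei richest in it. Angpt1 was at 1.01 (0.754 to 1.33), Tbc1d8 at 1.02 (0.776 to 1.32) and Pou2f2 at 1.21 (0.806 to 1.79).

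Of the non-classical monocyte list, 10 members had 30 UMIs. With BT2, 0 of these were at least 2-fold higher and 3 were at most 0.5 of vehicle, against 5.57% and 7.76% of all genes. The median log2 ratio of the list was -0.47 against -0.07 over all genes. Itgal, given above, had a ratio of 0.555 in Gpnmb and 0.583 in resident-type nuclei, and was thus lower with BT2 in each kind. Ceacam1 had a ratio of 0.259 (0.068 to 0.707), against 0.935 and 1.03. Lst1 was at 0.619 (0.378 to 0.974). Cx3cr1 was at 0.329 (0.064 to 1.06), an interval that held 1, and was at 0.212 in Gpnmb nuclei.

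Slfn4, an interferon-inducible Schlafen gene of myeloid cells, was at 2587 CPM in vehicle and 971 with BT2, a ratio of 0.375 (0.306 to 0.457). It was detected in 155 vehicle and 33 BT2 nuclei. Its ratio was 0.367 in Gpnmb and 0.361 in resident-type nuclei, so it was lower with BT2 in all 3 kinds. Of the interferon list, 0 of 5 genes were at least 2-fold higher and 2 were at most 0.5, against 5.57% and 7.76% of all genes. Rnf213, a ubiquitin ligase, was at 0.345 (0.160 to 0.664) and Herc6, another ubiquitin ligase, at 1.97 (1.03 to 3.67) and at 1.52 (0.701 to 3.13) without the nuclei richest in it.

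A further 6 genes lower with BT2 were spread over 26 to 57 nuclei in vehicle and rested on 1 to 9 UMIs with BT2. Traf3ip3, a TRAF3-interacting adaptor of leukocytes, had 63 UMIs in vehicle and 3 with BT2, a ratio of 0.151 (0.030 to 0.463). Ndrg1, a gene induced by hypoxia, had 65 and 4 UMIs, Clec7a, the beta-glucan receptor Dectin-1, had 41 and 2, and Unc93b1, the chaperone of endosomal Toll-like receptors, had 32 and 1. Gpcpd1, a phosphodiesterase of choline metabolism, had 102 and 9 UMIs, and Smad5, a mediator of BMP signalling, had 40 and 2. Better covered was Fn1, fibronectin, in 96 vehicle and 20 BT2 nuclei. It was at 1190 and 555 CPM, a ratio of 0.466 (0.353 to 0.607), against 0.775 and 0.518 in Gpnmb and resident-type nuclei.

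Smaller ratios with intervals below 1 included Itga4, the integrin chain of VLA-4, at 0.655 (0.526 to 0.810) and Syk, the kinase behind Fc receptors, at 0.590 (0.372 to 0.901). B2m, the light chain of MHC class I, was at 0.462 (0.190 to 0.975), and Ctsb, a lysosomal protease, at 0.590 (0.352 to 0.946). Dusp6, a phosphatase of ERK, was at 0.235 (0.062 to 0.638), Pparg, a lipid-sensing nuclear receptor, at 0.366 (0.129 to 0.853), and Casp8, a caspase of cell death, at 0.369 (0.114 to 0.930). Bank1, an adaptor of B cell receptor signalling, was at 0.479 (0.229 to 0.908) and Lipa, the lysosomal acid lipase, at 0.499 (0.238 to 0.949).

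Of the list of monocyte transcription factors, 0 of 14 were at least 2-fold higher with BT2 and 1 was at most 0.5. That was near the 5.57% and 7.76% of all genes, and the median log2 ratio was -0.12. Of the inflammatory cytokine list the counts were 0 and 1 of 5, with a median of -0.32. Single members of these and other lists had intervals above 1. Ikzf1, the transcription factor Ikaros, was at 952 CPM in vehicle and 1482 with BT2, a ratio of 1.56 (1.29 to 1.87), against 1.0 in Gpnmb and 1.01 in resident-type nuclei. Nfkb1, a subunit of NF-kappa B, was at 1.61 (1.21 to 2.13), against 0.926 and 0.985. Sirpa, the receptor of CD47, was at 1.63 (1.16 to 2.27), against 0.899 and 1.09. All 3 kept a ratio above 1 without the nucleus richest in them, at 1.48, 1.45 and 1.54. Mef2c, a MADS-box factor, was at 1.63 (1.18 to 2.23), and at 1.31 with an interval that held 1 (0.901 to 1.87) without those nuclei. Birc3, an inhibitor of apoptosis, was at 2.07 (1.01 to 4.14) on 23 and 15 UMIs, and at 2.12 (0.931 to 4.65) without the richest nuclei.

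Of the lists of other heart cells, 3 of 3 fibroblast genes with enough UMIs, 1 of 4 endothelial, 0 of 1 mural and 0 of 5 cardiomyocyte genes were at least 2-fold higher with BT2, against 5.57% of all genes. Lama2, a laminin chain of basement membranes, was at 115 CPM in vehicle and 702 with BT2, a ratio of 6.12 (4.17 to 9.12), against 2.21 in Gpnmb and 2.47 in resident-type nuclei. Gpc6, a glypican, was at 5.82 (3.67 to 9.41), Bicc1, an RNA-binding protein, at 7.82 (3.99 to 16.2), and C1qtnf7, a secreted C1q and TNF-related protein, at 17.8 (6.78 to 59.0). Col3a1, a fibrillar collagen, was at 4.70 (2.75 to 8.15), and Fbn1, fibrillin, at 3.97 (2.35 to 6.77). Plcl1, a phospholipase C-like protein, was at 5.23 (3.69 to 7.48), Sdk1, an adhesion molecule of neurons, at 11.8 (6.44 to 23.0), Kcnq5, a potassium channel, at 12 (6.58 to 23.5), and Tenm3, a teneurin, at 10.2 (4.72 to 24.6).

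The fibroblast list had a higher sum with BT2 as well. Of its 10 members 8 had a UMI in either library, Col1a2 and Lum had 0, and their sum was 259 CPM in vehicle and 1031 with BT2. In Gpnmb nuclei the sum was 480 and 1060 CPM, in resident-type nuclei 406 and 842, and in cardiomyocyte-marker nuclei 97.7 and 219. The mural list was at 205 and 511 CPM in Treml4 nuclei, with 6 of 7 members detected in either library, and at 462 and 744 in Gpnmb nuclei. The part of these lists in the ratios above was not tested.

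Single nuclei held a large share of the UMIs of several genes. Xirp2, an actin-binding protein of striated muscle, had a ratio of 33.3 (19.3 to 62.5), with 94 of 147 BT2 UMIs in 1 nucleus, and of 16.9 without it. Nrg1, neuregulin, had 49 of 54 BT2 UMIs in 1 nucleus and went from 9.53 to 1.48 without it. Csmd1, a complement-regulating membrane protein, had 23 of 33 in 1 nucleus and 2 UMIs in vehicle, with a ratio of 52.4 (13.4 to 451) and of 32.3, on 1 and 10 UMIs, without the richest nuclei. Ncam1, the neural cell adhesion molecule, had 15 of 32 in 1 nucleus and went from 6.78 to 5.41 (2.34 to 13.2) without them. In vehicle, 1 nucleus held 653 UMIs of the cardiomyocyte list. Without the nucleus richest in each gene, the muscle genes Fhl2, Rbm20, Cacna1c and Ryr2 went from 0.202, 0.188, 0.428 and 0.454 to 0.796, 1.31, 1.33 and 0.789. The channel gene Kcnd2 had 27 of its 31 vehicle UMIs in 1 nucleus.

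The T and NK cell list summed to 158 CPM in vehicle and 347 with BT2, from 58 and 40 UMIs, and Skap1, a T cell adaptor, was at 2.47 (1.14 to 5.26) on 18 and 14, and at 1.98 (0.711 to 5.15) without the richest nuclei. Of the B cell list, Ebf1, a B cell factor also expressed by stromal cells, supplied 152 of 239 and 88 of 102 UMIs, with a ratio of 1.84 (1.40 to 2.41) against 1.82 in Gpnmb nuclei. Il1r2, the decoy receptor of interleukin-1, was at 2.54 (1.42 to 4.50), with 11 of its 24 BT2 UMIs in 1 nucleus and a ratio of 1.86 (0.864 to 3.82) without it. Eng, endoglin of endothelium, was at 2.78 (1.47 to 5.21), and Abcc9, a potassium channel subunit of mural cells, at 1.74 (1.06 to 2.82), or 1.49 (0.815 to 2.62) without the richest nuclei.

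**Figure D4:**
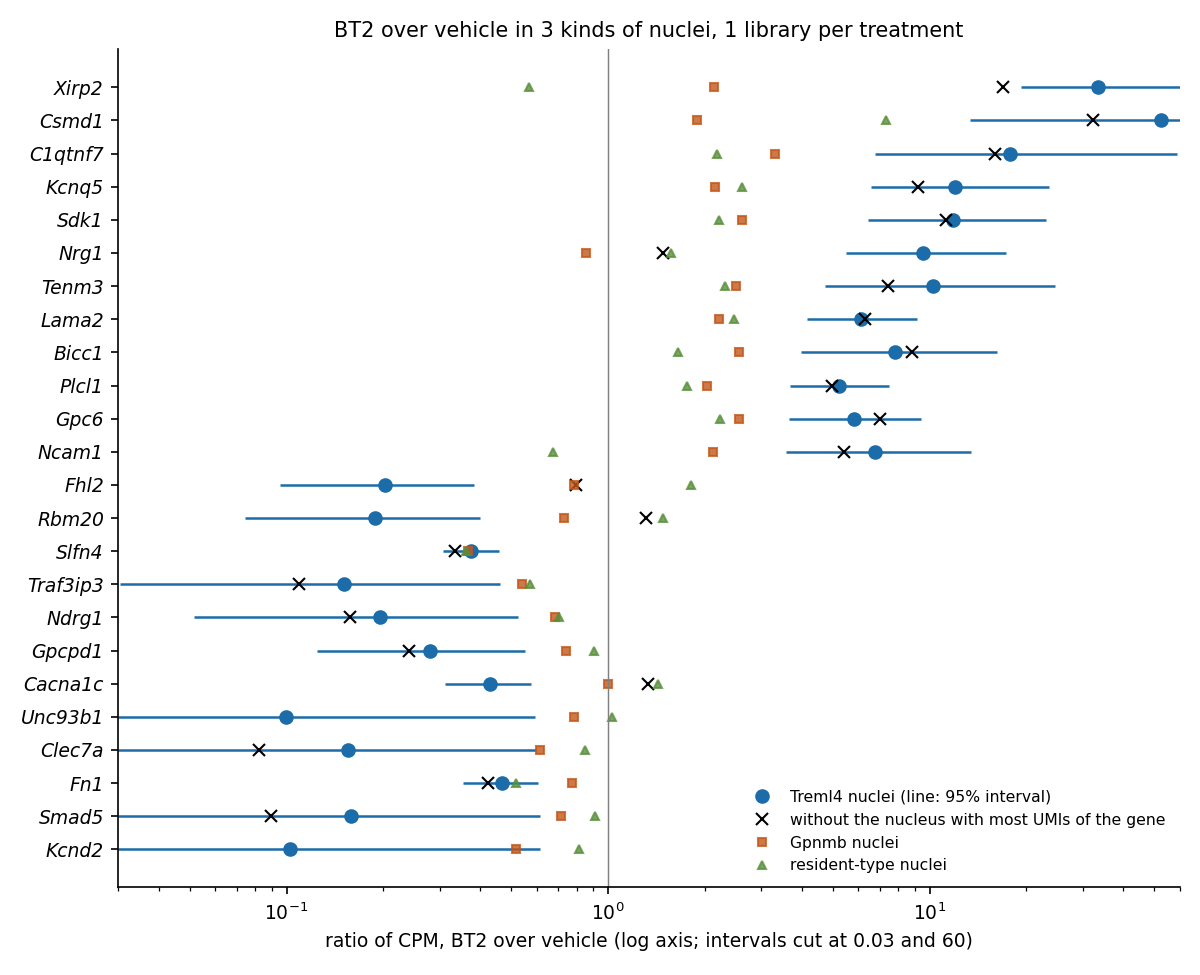
Ratio of BT2 over vehicle in CPM on a log axis for the 12 genes in each direction whose interval lay farthest from 1; circles are Treml4 nuclei with exact 95% intervals (cut at 0.03 and 60), crosses the same without the nucleus richest in the gene, squares Gpnmb and triangles resident-type nuclei. Slfn4 was at 0.375, 0.367 and 0.361 in the 3 kinds, and Nrg1 went from 9.53 to 1.48 without 1 nucleus.

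Tissue RNA gave the only replicated measure of these genes. At 24 h, BT2 against vehicle called 6016 of 15216 genes at an edgeR adjusted p under 0.05 (39.5%), with 2873 higher (18.9%) and 3143 lower (20.7%). At 4 h it called 2495 genes (16.4%), with 1015 higher (6.67%) and 1480 lower (9.73%). In tissue, fewer cells of a type and less RNA per cell cannot be told apart, and most genes named here are also expressed by other cells. CPM of tissue are scaled to the TMM-adjusted library total.

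None of the 3 rule genes passed the test at either time, and 0 of 3 had an unadjusted p under 0.05 in edgeR. Adgre4 was at 1.13 and 0.856 CPM in the BT2 libraries at 24 h and at 1.94 and 2.49 in vehicle, a log2 difference of -1.15 (SE 0.51, adjusted p = 0.104). Treml4 was at 0.181 and 0.285 CPM with BT2 and at 0.625 and 0.373 in vehicle, a log2 difference of -1.08 (SE 0.77, adjusted p = 0.292). P2ry10 was at 2.62 and 1.63 CPM with BT2 and at 2.85 and 3.27 in vehicle, a log2 difference of -0.53 (SE 0.31, adjusted p = 0.204). Treml4 rested on 4 to 18 counts per library. In the fit of the 24 h libraries alone, Adgre4 passed with an adjusted p of 0.0308.

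At 4 h, Treml4 was at 0.714 and 0.395 CPM with BT2 and at 0.435 and 2.10 in vehicle, and Adgre4 at 0.872 and 0.621 and at 0.326 and 1.68. Their groups overlapped. Without vehicle library 2 the log2 difference at 4 h turned from -1.32 to 0.30 for Treml4 and from -0.56 to 1.15 for Adgre4.

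Of the 14 non-classical monocyte genes in tissue at 24 h, 7 fell (Cx3cr1, Spn, Itgal, Itgax, Fcgr3a, Lst1 and Cd300a), Ceacam1 rose and 6 did not pass. Over all genes, 20.7% fell and 18.9% rose. The median log2 difference of the list was -0.69 against -0.01 over all genes. Cx3cr1 was at 2.58 and 4.04 CPM with BT2 and at 12.5 and 12 in vehicle (log2 -1.88, SE 0.31, adjusted p = 0.00296). Spn was at 11.6 and 11.2 CPM with BT2 and at 23.1 and 27.1 in vehicle (log2 -1.14, SE 0.19, adjusted p = 0.00268). Itgal was at 18.3 and 19.8 CPM with BT2 and at 38.1 and 47.4 in vehicle (log2 -1.16, SE 0.31, adjusted p = 0.0207).

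Ceacam1, which had a ratio of 0.259 in the Treml4 nuclei, was at 9.99 and 12 CPM with BT2 and at 7.53 and 7.46 in vehicle in tissue at 24 h (log2 0.56, adjusted p = 0.0316). The difference between the BT2 effects at 24 h and 4 h passed the edgeR test for 5 of the 64 genes named from nuclei and rule (adjusted p under 0.05), Ceacam1 among them, against 7.14% of all genes. At 4 h, 0 of the 14 rose and 7 fell (Spn, Itgax, Pou2f2, Ceacam1, Dusp16, Lst1 and Cd300a), with a median of -0.77. Over all genes, 6.67% rose and 9.73% fell at 4 h. Cx3cr1 was at 0.113 to 0.491 CPM in the 4 libraries of 4 h, far under its level at 24 h in vehicle.

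Of the 15 genes highest in Treml4 nuclei, 3 rose at 24 h (Angpt1, Tbc1d8 and Rap1gap2), 2 fell (Plac8 and Itgal) and 10 did not pass, against 18.9% and 20.7% of all genes, so the counts were near the background. Angpt1 was at 60.9 and 56.7 CPM with BT2 and at 15 and 22.6 in vehicle (log2 1.65, SE 0.19, adjusted p = 0.000924), and Plac8 at 3.21 and 3.14 and at 9.72 and 12.1 (log2 -1.77, SE 0.31, adjusted p = 0.00344). Rap1gap2 was at 118 and 101 CPM and at 76.9 and 79.0 (log2 0.49, adjusted p = 0.00908). At 4 h, Angpt1 rose (log2 0.86) and Plac8, Samhd1, Pou2f2 and Sorl1 fell, against 6.67% and 9.73% of all genes. Of the 10 lowest genes, Plau, Spire1, Mertk, Nrcam and Rbpj fell at 24 h and Plau, Spire1 and Rbpj at 4 h. Over all genes, 20.7% fell at 24 h and 9.73% at 4 h.

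The genes that differed most between the nuclear libraries did not all differ the same way in tissue at 24 h. Of the 12 higher with BT2 in nuclei, 5 rose (Csmd1, C1qtnf7, Sdk1, Lama2 and Gpc6) and 2 fell (Xirp2 and Ncam1). Of the 12 lower with BT2, 6 fell (Slfn4, Traf3ip3, Ndrg1, Unc93b1, Clec7a and Fn1) and 5 rose (Fhl2, Rbm20, Gpcpd1, Cacna1c and Kcnd2). Over all genes, 18.9% rose and 20.7% fell. Slfn4 was at 44.9 and 107 CPM with BT2 and at 248 and 266 in vehicle (log2 -1.76, SE 0.36, adjusted p = 0.00840, or 0.0639 with no filter on low counts). Lama2 was at 257 and 225 CPM with BT2 and at 124 and 121 in vehicle (log2 0.98, SE 0.11, adjusted p = 0.000891).

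With 2 libraries a group, many calls in tissue depended on single libraries. Of the 35 genes named here that were called at 24 h, 16 stayed called without any 1 library, among them Cx3cr1, Spn, Angpt1, Plac8, Plau, Nrcam, Rbpj, Slfn4 and Lama2. Without BT2 library 1, BT2 library 2, vehicle library 1 or vehicle library 2, 16, 10, 13 and 18 of these calls were lost, with edgeR adjusted p up to 0.183, 0.213, 0.224 and 0.238. Of 22 called at 4 h, 17, 22, 6 and 19 were lost, with adjusted p up to 0.161, 0.236, 0.128 and 0.284. The calls of Itgal, Itgax, Lst1, Cd300a, Fcgr3a, Ceacam1, Tbc1d8 and Rap1gap2 at 24 h were among those lost without a library.

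**Figure D5:**
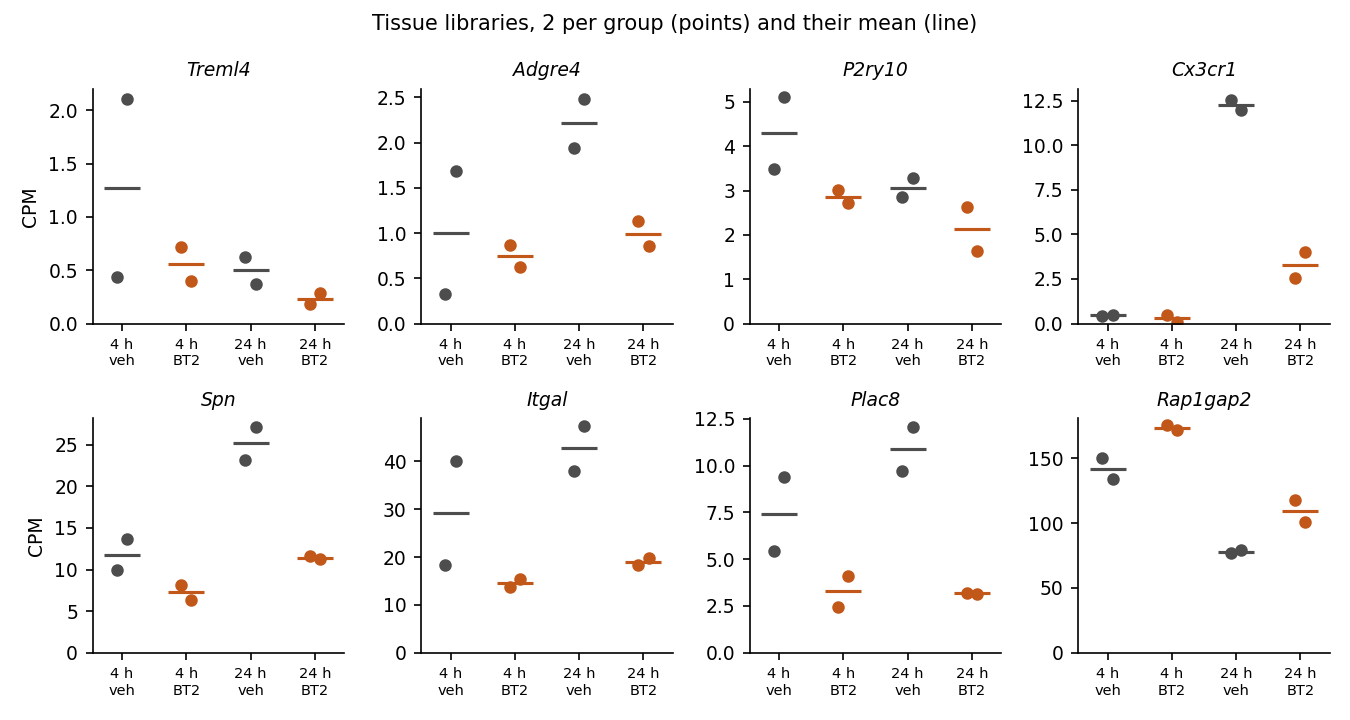
Tissue CPM of the 3 rule genes, Cx3cr1, Spn, Itgal, Plac8 and Rap1gap2 in each of the 8 libraries (points, 2 per group) with the group mean (line), for vehicle and BT2 at 4 h and 24 h. Cx3cr1 was at 12.5 and 12 CPM in vehicle at 24 h and at 2.58 and 4.04 with BT2.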

How the data were processed

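The authors deposited UMI counts per gene and barcode for the 2 nuclear libraries (39537 features, Cell Ranger 8.0.1 per the file headers) and raw counts per gene for 8 tissue libraries (31580 genes). The submitters' processing notes name Trim Galore, STAR, featureCounts and the build Rnor_6.0. No source used here states a strand setting or the treatment of intronic reads, so overlapping genes and near-identical paralogs are uncertain. 0 columns stayed unassigned.

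The members of the Treml4 nuclei and all gene lists were chosen with earlier results of these data known. UMIs were summed per library and kind of nucleus and scaled to CPM. Ratios were given for genes with at least 30 UMIs in both sums together, with exact 95% intervals. Past the fold means a ratio of at least 2 or at most 0.5. Counts and ranks over both other kinds at once instead required 30 UMIs in Treml4 nuclei (higher) or in either other kind (lower). Named genes were the rule genes, the non-classical monocyte list, the 15 highest and 10 lowest genes over both other kinds (largest lowest ratio and smallest highest ratio, pseudocount 1 UMI), the 12 genes per direction whose interval of the BT2 ratio had its nearer bound farthest from 1, and up to 2 such members of each of the lists; other names were chosen after their values were seen. Cardiomyocyte-marker nuclei had at least 20 UMIs of Ttn, Ryr2 and Ctnna3 and 0 of Ptprc, Csf1r, Pdgfra and Flt1, a definition set after the data were seen. Doublets were not removed here.

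Tissue counts were tested with edgeR 4.0.16 (R 4.3.3; filterByExpr, TMM, robust quasi-likelihood fit over all 8 libraries, 4 residual degrees of freedom, biological coefficient of variation 14.3%), two-sided, with Benjamini-Hochberg adjustment over 15216 genes and adjusted p under 0.05 called. DESeq2 1.42.0, upper quartile factors, no filter, only the libraries of the time compared, a replicate block and leaving out each library were alternatives. The tissue fit was also run on 1 simulated draw per time, with far fewer changed genes than were called in the data. False calls there made up a larger share than the threshold allows, which does not give their share in the data. Nuclear work used Python 3.11.15 with numpy 2.4.6 and scipy 1.17.1.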

Additional observations from a re-analysis of the deposited data

Results flagged for a closer look

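The effect of BT2 in tissue differed between 24 h and 4 h for 5 of the 64 genes named from nuclei and rule. The edgeR test of the difference of effects called 1087 of 15216 genes (7.14%), so this count was near the background. For Ceacam1 the log2 effect at 24 h minus that at 4 h was 1.23 (adjusted p = 0.0310), from 0.56 at 24 h and -0.67 at 4 h. For Nrcam, a neuronal cell adhesion molecule among the genes lowest in Treml4 nuclei, it was -2.11 (adjusted p = 0.0367), from -1.54 and 0.57. For Ndrg1 it was -1.26 (adjusted p = 0.0454), for Fhl2 1.05 (adjusted p = 0.0208) and for Cacna1c 0.65 (adjusted p = 0.0496).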

How the results depend on the processing

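Depth limits the nuclear values: the ratios rest on 65 BT2 nuclei, and 1 library per treatment leaves no replicate check. The share of Treml4 nuclei in vehicle and BT2 was 1.23% and 0.448% with at least 3 UMIs of the rule genes, 1.03% and 0.391% with at least 2 of the 3 genes detected, 1.29% and 0.412% thinned to 1000 UMIs, 0.884% and 0.362% without Treml4 in the sum, 1.27% in vehicle without Adgre4, and 4.23% and 2.25% past the gate (ratio 0.531). Some of these alternatives, and those leaving out single nuclei or shared barcodes, were added after seeing the data. Against 196 genes higher and 273 lower with BT2, there were 433 lower without the nuclei richest in each gene, 19 and 36 with a minimum of 100 UMIs, 78 higher in nuclei without lymphocyte UMIs, 48 and 116 in nuclei low in UMIs of other heart cells, and 120 higher with at least 2 rule genes detected. Genes over both other kinds numbered 103 with a minimum of 100 UMIs and 103 in nuclei low in other-cell UMIs. Ratios turned for Rbm20 (1.31) and Cacna1c (1.33) without the richest nuclei, for Cacna1c (2.54) and Ryr2 (1.37) without lymphocyte UMIs, and for Plau (1.13) and Sema5b (1.31) in nuclei low in other-cell UMIs. Those were 49 vehicle and 11 BT2 nuclei, and ratios over the other kinds add a pseudocount of 1 UMI to each sum. Plau had at most 1 UMI per library in all Treml4 nuclei, so its turned ratio does not measure its level. Of 345 recomputed BT2 ratios 319 moved by less than their interval, as did 155 of 175 over the other kinds. The cause was not tested.

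In tissue, leaving out 1 library gave 2982 to 4558 calls at 24 h and 112 to 2796 at 4 h, the lowest without BT2 library 1 and BT2 library 2. At 4 h, 621 genes were called from that time's libraries alone. Upper quartile factors split the 4 h calls into 1298 higher and 1244 lower. Deviations of equal-numbered libraries correlated at 0.0181 (24 h) and 0.0119 (4 h). The labels state no pairing, and 1 such value per time cannot settle whether these libraries share more than a number. The replicate block called 5332 genes at 24 h and 1499 at 4 h, and lost 3 and 9 calls of named genes. With single libraries left out, log2 changes that turned spanned, at 24 h, -0.395 to 0.376 for Ace and -0.284 to 1.79 for Nr4a1. At 4 h they spanned -0.42 to 0.167 for Ace, -1.19 to 1.15 for Adgre4, -0.304 to 0.106 for Bicc1, -0.0914 to 0.339 for Csmd1, -1.99 to 0.0257 for Cx3cr1, -0.835 to 1.06 for Kcnq5, -3.27 to 0.879 for Ly49si1, -0.547 to 0.434 for Mertk, -0.208 to 0.28 for Mtss1, -0.375 to 0.232 for Ncam1 (0.0247 with upper quartile factors), -1.11 to 0.339 for Nr4a1, -0.627 to 0.111 for Nrg1, -0.142 to 0.714 for Pon3, -0.414 to 0.124 for Sema5b, -0.0199 to 0.0661 for Smad5 and -1.95 to 0.303 for Treml4. None of these was called with all libraries.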
